A study of Mus musculus with 33 samples.

Results

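Trib1, Trib2 and Trib3 encode the mouse Tribbles pseudokinases, proteins that keep the fold of a protein kinase but have little or no kinase activity and work mainly by holding other proteins together. TRIB1 and TRIB2 bring the ubiquitin ligase COP1 to substrates such as C/EBP-alpha, a transcription factor that maintains the hepatocyte program. TRIB3 binds the insulin-pathway kinase AKT, and its gene is a known target of ATF4 and CHOP, the transcription factors downstream of PERK, one of the sensors of misfolded protein in the endoplasmic reticulum (ER). The genes were taken by their Ensembl identifiers (ENSMUSG00000032501, ENSMUSG00000020601 and ENSMUSG00000032715), which make up 3 of the 50420 gene identifiers in the data and are present in all 6 tables of values. The rule that picks them uses names alone, but the family was proposed with results of these data known.

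Liver and kidney RNA was sequenced from male mice of the inbred strains C57BL/6J (B6) and CAST/EiJ (CAST) and from male F1 offspring of B6 females and CAST males, all between 15 and 23 weeks of age. TM mice were injected into the peritoneum with tunicamycin at 1 mg/kg in DMSO, and control mice with DMSO alone. Tunicamycin blocks N-linked glycosylation, so that misfolded protein accumulates in the ER. The sample labels put tissue collection at 24 h, whereas the methods of the study give a shorter time. The 33 samples formed 12 groups. Each kidney group had 3 samples, as did B6 liver control, CAST liver TM and F1 liver control, while B6 liver TM, CAST liver control and F1 liver TM had 2. The study used 3 mice for each genotype and treatment, which implies that liver and kidney samples share mice, and its authors left out samples that kept the treatments from clustering separately. That selection precedes every p below.

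Values are counts normalized by the authors within each genotype and tissue, and libraries held 3355262 to 23094521 reads (median 13143216). Hepatocyte markers summed to 10730 to 84460 CPM, the reads of a gene scaled to library depth, in liver and 581 to 1831 in kidney, and kidney tubule markers to 13480 to 33130 CPM in kidney and at most 26.3 in liver, so that the tissues matched their labels. In 5 libraries, olfactory and vomeronasal receptor genes took over 400 CPM or the repeat-like gene Gm10800 took over 50% of reads. They are B6 liver control 2, B6 liver TM 3, F1 liver control 2, F1 liver TM 2 and F1 kidney control 1. For the 3 Tribbles genes, calls, directions and called folds that change without them (folds by more than 1.5 times) are given both ways. Other named genes and the gene lists were not run without them. Shares of all genes called are given with all libraries and depend on them. In F1 kidney 1815 of 24064 genes were called higher with all libraries and 2328 of 21033 without control 1. For B6 and F1 liver no such count is given, because 1 TM sample would remain in each. The shares of these liver groups are therefore not to be read as stable. In bulk RNA, fewer cells of a type and less RNA per cell cannot be told apart.

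In the GENCODE annotation of GRCm38, Trib1 is at chr15:59648350-59657099 on the plus strand, Trib2 at chr12:15791727-15816922 on the minus strand and Trib3 at chr2:152337422-152344032 on the minus strand. The reads had been aligned to other builds, so these positions only locate the genes. Their exons cover 6248, 4335 and 2125 bases. The microRNA gene Mir6387 lies in an intron of Trib2 on the same strand and shares no exon base with it.

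The promoter set used held no window for Trib1, which was therefore not searched. Promoter windows from RefSeq on GRCm38.p6, 250 bases before to 50 bases after the start of the gene, are shown for Trib2 and Trib3. These genes moved in opposite directions in kidney. Both are on the minus strand and are written 5′ to 3′ along the gene, Trib2 from chr12:15816736-15817035 and Trib3 from chr2:152344011-152344310. Capitals mark TTNCATCA, the ATF4-C/EBP composite motif.
Trib2: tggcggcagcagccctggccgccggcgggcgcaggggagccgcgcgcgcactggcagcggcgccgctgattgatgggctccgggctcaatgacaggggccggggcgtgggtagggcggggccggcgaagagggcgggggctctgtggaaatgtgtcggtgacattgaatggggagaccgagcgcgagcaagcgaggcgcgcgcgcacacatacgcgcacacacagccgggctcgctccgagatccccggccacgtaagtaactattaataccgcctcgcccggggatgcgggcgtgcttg
Trib3: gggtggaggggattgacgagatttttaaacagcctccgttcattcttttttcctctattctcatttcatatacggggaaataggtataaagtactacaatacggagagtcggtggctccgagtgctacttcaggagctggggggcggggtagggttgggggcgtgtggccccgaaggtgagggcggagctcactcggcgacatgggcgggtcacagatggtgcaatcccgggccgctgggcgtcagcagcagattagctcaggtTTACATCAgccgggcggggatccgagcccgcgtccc

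The Trib3 window held 1 match, TTACATCA at bases 265 to 272 of the window, on the strand of the gene. None was found in Trib2. Neither window held TGACGTCA (the cAMP response element), TGACGTGG (the unfolded protein response element) or CCAAT. All letters were searched on both strands, and TGACGTCA and TGACGTGG share their first letters. TTNCATCA occurred in 3.97% of 32817 windows of this length, TGACGTCA in 1.79%, TGACGTGG in 0.676% and CCAAT in 37.4%. A match is a description of these letters and not of a bound site. The Trib2 window had a GC content of 71% and the Trib3 window of 58.3%.

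Trib3 rose with TM in both tissues of all 3 genotypes, from levels near the floor of detection in kidney to the highest level of the family. In B6 kidney the normalized counts were 11.8, 9.36 and 14.4 in the controls and 3113, 2829 and 2716 with TM. The CAST kidney controls were 29.8, 51.6 and 20.7, and the TM samples 3095, 3318 and 3227. F1 kidney gave 31.2, 12.2 and 45.4 in controls against 2024, 2197 and 2089 with TM. The TM samples of each kidney table lay close together, while the controls, which rest on 10 to 59 reads, spread more.

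In liver the controls started higher. B6 liver controls had normalized counts of 88.2, 133.6 and 73.2, and the TM samples had 7013 and 4080. CAST liver controls had 263.7 and 59.0, and the TM samples 8217, 10135 and 7235. F1 liver controls had 141.7, 55.3 and 177.2, and the TM samples 4758 and 2299. In all 6 tables the lowest TM value exceeded the highest control, which held for 18.2% of all genes in B6 liver, 25.4% in CAST liver, 15.2% in F1 liver, 20.3% in B6 kidney, 18% in CAST kidney and 19.5% in F1 kidney. 

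**Figure D1:**
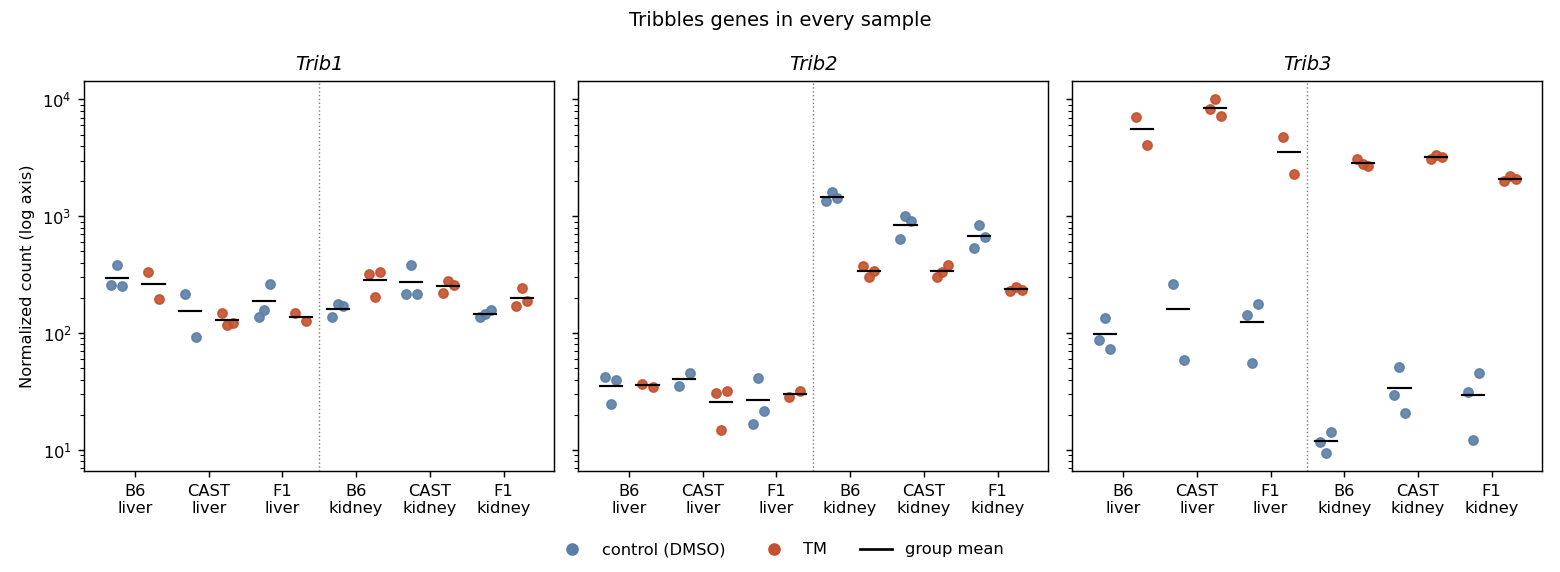
Normalized count (log axis) of Trib1, Trib2 and Trib3 in each of the 33 samples, by genotype and tissue, with 1 point per sample and a black bar at the group mean. Trib3 TM samples lie far above their controls in all 6 tables, Trib2 falls in kidney from a level that liver does not reach, and Trib1 stays within about the same range throughout; values of different tables were normalized apart.

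The ratio of mean normalized counts, TM to control, was 243.7 in B6 kidney, 94.5 in CAST kidney and 71.0 in F1 kidney, and 56.4 in B6 liver, 52.9 in CAST liver and 28.3 in F1 liver. A gene was called where limma's moderated test on log2 of the normalized count plus 1 gave an adjusted p under 0.05 and the change was 1.5-fold or more. By that test the log2 fold change of Trib3 in B6 kidney was 7.83 (SE 0.17, adjusted p = 8.5e-09), the largest rise of the 22215 genes tested there. It was 6.62 (SE 0.29, adjusted p = 5.7e-06) in CAST kidney and 6.28 (SE 0.37, adjusted p = 6.8e-06) in F1 kidney. Trib3 ranked 4 and 5 from the top of those tables.

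B6 liver had a log2 fold change of 5.80 (SE 0.35, adjusted p = 3.9e-05). That of CAST liver was 6.07 (SE 0.49, adjusted p = 5.5e-05), and that of F1 liver 4.88 (SE 0.48, adjusted p = 1.8e-06). The CAST value was 7.14 without control 2 and 4.996 without control 3, the B6 value 6.43 without control 2 and TM 3, and the F1 value 4.35 to 5.40 with 1 library left out. Trib3 was thus called higher in 6 of 6 tables. Of all genes tested, those called higher made up 4.8% in B6 liver, 11.1% in CAST liver, 3.42% in F1 liver, 9.73% in B6 kidney, 8.69% in CAST kidney and 7.54% in F1 kidney. Without the mean-variance trend in limma, Trib3 was not called in B6 liver (adjusted p = 0.052) or F1 liver (adjusted p = 0.19), at the same fold change. That setting called 0 of 21741 genes in B6 liver and 0 of 22731 in F1 liver, so the loss is not particular to Trib3. Over all tested genes the median lay at 0.21 for F1 liver, at -0.13 for F1 kidney and less than 0.1 from 0 for the other tables.

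Trib3 had larger folds in kidney but higher mean TM levels in liver. In CPM, the TM groups were ordered CAST liver (838 ± 86.7, SD, n = 3), B6 liver (553 ± 152, n = 2), F1 liver (354 ± 165, n = 2), CAST kidney (245 ± 32.4, n = 3), B6 kidney (220 ± 10.8, n = 3) and F1 kidney (185 ± 8.5, n = 3). CAST liver was apart from B6 liver and B6 kidney from F1 kidney, while the other neighbours in this order overlapped. The control groups followed, from 14.4 ± 13.4 CPM (n = 2) in CAST liver to 0.93 ± 0.21 (n = 3) in B6 kidney. Trib3 therefore gained 346 to 824 CPM in liver and 182 to 242 CPM in kidney.

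With CPM scaled by the TMM method over all libraries, the Trib3 level ran from 286 to 1203 in liver TM samples against 148 to 199 in kidney TM samples, and from 5.68 to 32.5 in liver controls against 0.57 to 3.45 in kidney controls. On that scale neither pair of ranges overlapped. On plain CPM both did, through the F1 liver libraries TM 2 (238 CPM) and control 2 (1.04 CPM), the latter with 61.5% of its reads on Gm10800. Tables were normalized apart, and levels between tissues were not tested.

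Trib2 had its highest levels in kidney, and it fell with TM there. B6 kidney controls had normalized counts of 1359, 1628 and 1424, and the TM samples had 376, 299 and 342. CAST kidney controls had 638, 1001 and 910, and the TM samples 305, 332 and 386. F1 kidney controls had 536, 841 and 663, and the TM samples 230, 250 and 235. In each kidney table all TM samples lay below all controls, as they did for 18.7% of all genes in B6, 14.9% for CAST and 14.1% for F1. The TM groups were more alike than the controls.

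The log2 fold change of Trib2 was -2.11 (SE 0.13, adjusted p = 4.1e-06) in B6 kidney, -1.30 (SE 0.20, adjusted p = 0.0035) in CAST kidney and -1.49 (SE 0.21, adjusted p = 0.0013) in F1 kidney. The mean control count was 4.33, 2.49 and 2.85 times the mean TM count. Trib2 was called lower in 3 of 3 kidney tables, where 7.77%, 4.7% and 2.57% of all genes were called lower in B6, CAST and F1. Beside this fall, the summed CPM of 8 kidney tubule markers was 19280 to 33130 in control and 13480 to 18710 in TM kidneys, with 2 of the 8 called lower in B6 kidney and none in CAST or F1 kidney. The median log2 fold changes of the tubule markers in B6, CAST and F1 kidney were -0.28, -0.06 and 0.45, and 2 of 4 fibroblast markers were also called lower in B6 kidney. The part of these cell markers in the fall of Trib2 was not tested.

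In liver Trib2 was represented by 8 to 53 reads a library. Its normalized counts were 42.1, 25.0 and 39.3 in B6 controls against 36.7 and 34.8 with TM, and 16.7, 41.4 and 21.5 in F1 controls against 28.5 and 31.8 with TM. In CAST liver the controls had 35.5 and 45.4, and the TM samples 30.5, 14.8 and 31.9. The CAST liver TM samples were all below the controls, as were 25.6% of all genes tested in that table (19.9% in B6 liver and 15.9% in F1 liver), while the B6 and F1 groups overlapped. The log2 fold changes were 0.04 (95% interval -0.85 to 0.94) in B6 liver, -0.70 (-1.61 to 0.22) in CAST liver and 0.28 (-0.97 to 1.52) in F1 liver, and none was called (adjusted p = 0.99, 0.26 and 0.92). The fall seen in the kidney of the same genotype lay outside the interval in B6 and F1 liver but inside it in CAST liver.

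The order of Trib2 levels separated the tissues. Kidney controls had 116 ± 16.8 CPM in B6, 69.4 ± 12.4 in F1 and 68.3 ± 21.5 in CAST (SD, n = 3 each). Kidney TM groups had 26.1 ± 5.63 CPM in CAST, 25.9 ± 2.16 in B6 and 21.0 ± 0.94 in F1 (SD, n = 3 each). All liver groups lay between 1.22 and 3.62 CPM. B6 kidney control was apart from F1 kidney control, kidney controls from kidney TM samples, B6 kidney TM from F1 kidney TM, and the lowest kidney TM group from liver, and no neighbours within liver were apart.

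Trib1 changed little. In B6 kidney the normalized counts were 136, 177 and 172 in controls and 324, 203 and 335 with TM, so that the groups did not overlap. F1 kidney had 138, 144 and 158 in controls and 172, 241 and 188 with TM, again without overlap. CAST kidney had 218, 385 and 217 in controls and 221, 278 and 259 with TM, and the groups overlapped. Such separation upwards was common, as given above for Trib3.

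The log2 fold change of Trib1 was 0.80 (SE 0.21, adjusted p = 0.019) in B6 kidney, where it was called higher. This call was lost without control 1 (adjusted p = 0.058), without TM 3 (adjusted p = 0.083) or without limma's trend (adjusted p = 0.072). It was 0.44 (95% interval -0.01 to 0.88, adjusted p = 0.21) in F1 kidney and -0.07 (-0.62 to 0.48, adjusted p = 0.90) in CAST kidney. Trib1 was thus called in 1 of 6 tables.

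In liver the normalized counts of Trib1 were 256, 386 and 252 in B6 controls and 331 and 195 with TM. CAST liver controls had 216 and 93.5, and the TM samples 149, 116 and 122. F1 liver controls had 138, 159 and 265, and the TM samples 148 and 126. The groups overlapped in every liver table. For B6 liver the log2 fold change was -0.20 (95% interval -0.95 to 0.55), for CAST liver -0.14 (-0.91 to 0.62) and for F1 liver -0.40 (-1.28 to 0.48), with adjusted p of 0.85, 0.80 and 0.79. The B6 value was 0.38 without control 2 and TM 3, which leaves 1 TM sample. The 12 group means of Trib1 lay between 11.3 and 26.3 CPM, and each overlapped its neighbours in the order.

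**Figure D2:**
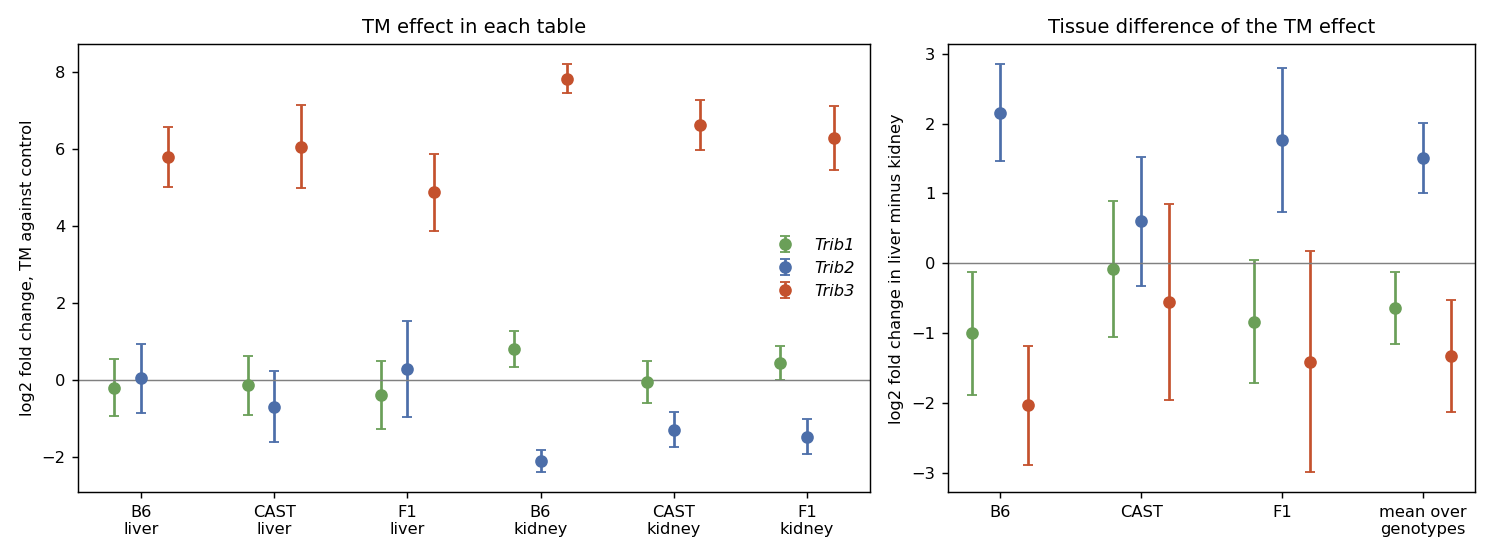
Left, log2 fold change of TM against control from limma for each Tribbles gene in each genotype and tissue. Right, the difference between the liver and the kidney fold change in each genotype and as a mean over genotypes; points are estimates and bars are 95% intervals. Trib3 is at 4.88 to 7.83 in all tables, and Trib2 is below 0 in the 3 kidney tables. On the right the estimates of Trib2 lie above and those of Trib3 below 0. Their intervals cross 0 for both genes in CAST and for Trib3 in F1.

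The TM effects were then compared between tissues by the interaction of tissue and treatment, called at an adjusted p under 0.05. Averaged over genotypes, the effect on Trib2 was 1.51 higher in liver than in kidney on the log2 scale (SE 0.24, adjusted p = 5.4e-05), and the effect on Trib3 was lower in liver, with a difference of -1.33 (SE 0.39, adjusted p = 0.019). Trib1 had a difference of -0.64 (95% interval -1.16 to -0.12, adjusted p = 0.095). Of all genes 4.29% were called higher in liver and 10.1% lower in this comparison. The Trib3 call was lost when B6 liver TM 3 (adjusted p = 0.051), CAST liver control 2 (adjusted p = 0.076) or F1 liver TM 2 (adjusted p = 0.063) was left out. The Trib1 difference passed the threshold without B6 liver TM 1 (adjusted p = 0.047), CAST liver control 3 (adjusted p = 0.020) or CAST kidney control 2 (adjusted p = 0.048).

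Within genotypes, the difference was 2.16 (SE 0.32, adjusted p = 0.0040) for Trib2 and -2.03 (SE 0.39, adjusted p = 0.015) for Trib3 in B6. With all libraries both were called, in a comparison that called 0.919% of genes higher and 2.83% lower in liver. Without B6 liver control 2 and TM 3, which leaves only TM 1 in the B6 liver TM group, the differences were 1.97 and -1.40. In F1, Trib2 had a difference of 1.76 (SE 0.48, adjusted p = 0.11). It passed without F1 liver control 2 (2.13, adjusted p = 0.0063) and by DESeq2 (adjusted p = 0.0016). DESeq2 called 362 of 23993 genes higher and 998 lower in liver there. Without those of the 5 libraries named above that are F1, the Trib2 difference was 2.21, with only TM 1 left in the F1 liver TM group. By limma with all libraries, 0.263% of genes were called higher and 0.967% lower in liver in F1, and 1.03% and 1.63% in CAST. Trib3 in F1 had -1.41 (95% interval -2.99 to 0.17, adjusted p = 0.47). The CAST differences were 0.60 (-0.33 to 1.53, adjusted p = 0.57) for Trib2 and -0.55 (-1.95 to 0.85, adjusted p = 0.76) for Trib3. In CAST the Trib3 value rested on liver control 2, without which it was 0.52. For Trib1 the 95% interval of the difference was -1.88 to -0.12 in B6 (adjusted p = 0.23, and the difference was -0.42 without the libraries named above), -1.05 to 0.90 in CAST (adjusted p = 0.96) and -1.72 to 0.05 in F1 (adjusted p = 0.44).

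Genotype differences of the TM effect were tested in each tissue by limma's F-test of both genotype terms. No member was called in kidney, where 0.0878% of genes were, with adjusted p of 0.92 for Trib1, 0.75 for Trib2 and 0.67 for Trib3 and unadjusted p of 0.047, 0.014 and 0.0097. An unadjusted p under 0.05 was reached by 1233 of 22767 genes in kidney. There limma called 20 genes, DESeq2 115, and limma with the replicate number as a block 70. No alternative called a member, and the lowest adjusted p of Trib3 among the alternatives was 0.056. In liver 0 of 20157 genes were called by limma, 761 had an unadjusted p under 0.05, edgeR called 0 and DESeq2 called 103. With the replicate number as a block, which gives no weight to liver libraries without a partner of their number, limma called 61 genes there. The count of 0 thus depends on the test and on the libraries used. A count without the libraries named above is not given, because B6 and F1 liver then keep 1 TM sample each. The unadjusted p of the members in liver were 0.88, 0.30 and 0.29. Relative to B6 kidney, the log2 fold change of Trib3 differed by -1.21 (SE 0.47) in CAST and -1.55 (SE 0.47) in F1, and the B6 kidney controls had the lowest Trib3 CPM of the 3 genotypes. F1 reads had been aligned with another program than those of the parental strains, and the part of this in a difference from F1 was not tested.

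Per kilobase of exon, the leading member of the family changed with TM in kidney. In kidney controls the order within a sample was Trib2, Trib1, Trib3 in 9 of 9 samples, and in kidney TM samples it was Trib3, Trib2, Trib1 in 9 of 9. Liver TM samples had Trib3, Trib1, Trib2 in 7 of 7, an order already present in 7 of 8 liver controls. Trib3 and Trib1 were nearly equal in some of these controls. Their ratio was 1.011, 1.019 and 0.852 in B6 liver controls 1, 2 and 3 and 1.023 in F1 liver control 2. The other liver controls had 1.855 to 3.594. The share of Trib3 in the summed CPM per kilobase of the 3 genes was 1.08% to 10.7% in kidney controls and 90.6% to 93.2% with TM, and 41.0% to 74.4% in liver controls and 97.5% to 99.5% with TM. Trib2 had 72.9% to 92.0% of the family in kidney controls and 4.50% to 5.60% with TM. The family total went from 13.5 to 33.4 CPM per kilobase in kidney controls to 89.6 to 136 with TM, and from 1.15 to 15.1 in liver controls to 115 to 424 with TM.

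**Figure D3:**
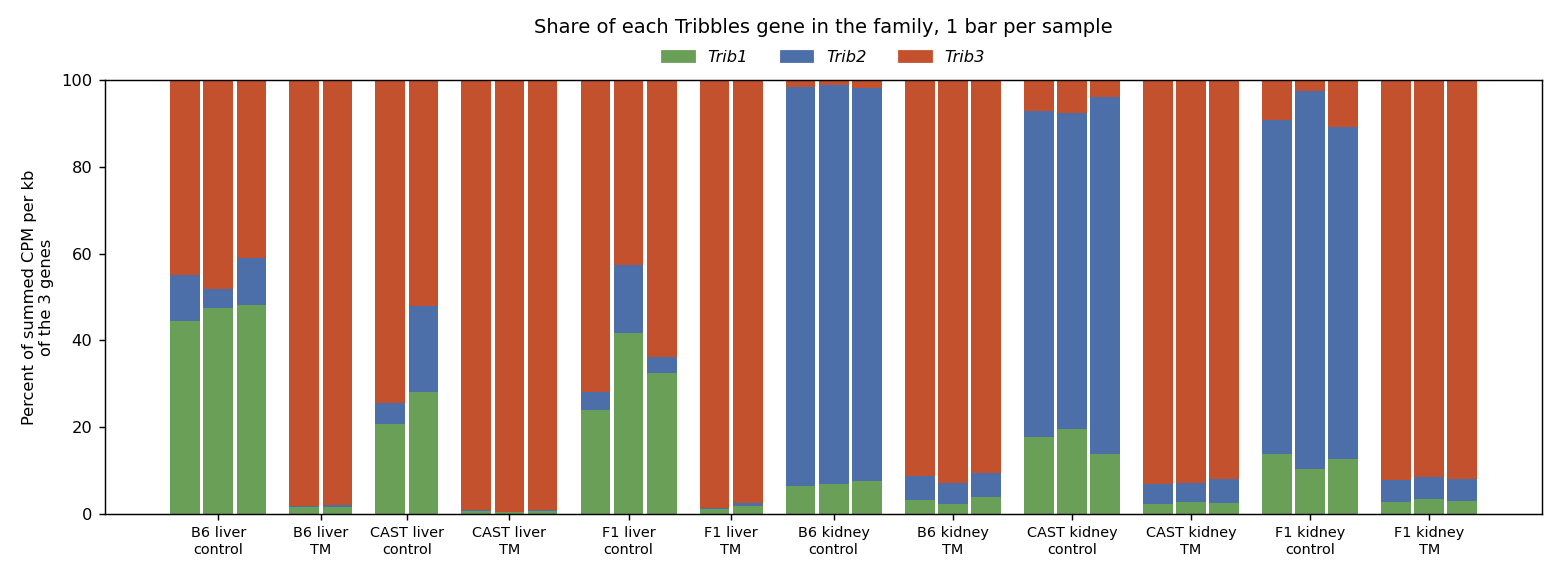
Share of each Tribbles gene in the summed CPM per kilobase of exon of the 3 genes, in percent, with 1 stacked bar per sample grouped by genotype, tissue and treatment. Trib2 takes 72.9% to 92.0% of kidney controls, Trib1 and Trib3 take most of liver controls, and Trib3 takes over 90% of every TM sample.

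The 16 genes listed for the PERK, ATF4 and CHOP branch were mostly called higher, as Trib3 was. In liver 15 of 16 tested were called higher in B6, 12 of 15 in CAST and 13 of 16 in F1, and in kidney 16, 13 and 14 of 16, with none lower. Of all genes, 4.8%, 11.1% and 3.42% were called higher in B6, CAST and F1 liver, and 9.73%, 8.69% and 7.54% in kidney. The median log2 fold change of the list was 2.75 to 3.56, against -0.13 to 0.21 for all genes. Ddit3, which encodes CHOP, had a mean log2 fold change of 6.54 over the 6 tables and a tissue difference of -0.10 (SE 0.34, adjusted p = 0.89). Atf3, a stress-induced repressor, had 6.88 and -0.94 (SE 0.48, adjusted p = 0.21). Asns, the asparagine synthetase, had 4.26 and -0.92 (SE 0.41, adjusted p = 0.15).

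Chac1, which encodes an enzyme that degrades glutathione, had a mean log2 fold change of 5.24, and its response was lower in liver by a difference of -3.01 (SE 0.55, adjusted p = 0.00027). The list did not share 1 direction between tissues: 8 of its 16 genes had a tissue difference past the threshold, 6 lower in liver and 2 higher. Of all genes, 10.1% were called lower in liver and 4.29% higher. Nupr1 and Psat1 were on the higher side. Nupr1, a stress-induced nuclear protein, had a difference of 4.38 (SE 0.34, adjusted p = 1.0e-09), and Psat1, an enzyme of serine synthesis, 2.78 (SE 0.40, adjusted p = 9.2e-06). Of these 16 genes, all matched a RefSeq promoter window and 6 held TTNCATCA (Asns, Atf3, Chac1, Nupr1, Slc7a11 and Vldlr), against 4.51% of 26994 genes.

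Of 19 partners, substrates and relatives of the Tribbles proteins, 2 to 5 were called in each table. In liver 2 were called higher and 3 lower for B6, 2 and 2 for CAST, and 1 and 2 for F1. The matching shares of all genes were 4.8% higher and 6.45% lower (B6), 11.1% and 10.4% (CAST), and 3.42% and 4.15% (F1). The kidney tables had 3 higher and 1 lower (B6), 2 and 1 (CAST), and 2 and 0 (F1), where 9.73% and 7.77%, 8.69% and 4.7%, and 7.54% and 2.57% of all genes were called. The list medians were -0.21 to -0.10 in liver and 0.21 to 0.25 in kidney. Cop1, the ligase bound by TRIB1 and TRIB2, was called in no table, with a mean log2 fold change of -0.01.

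Stk40, a related pseudokinase that also binds COP1, rose in 6 of 6 tables by 1.81 to 2.35 on the log2 scale, with a tissue difference of -0.20 (SE 0.24, adjusted p = 0.65). Cebpa, which encodes C/EBP-alpha, was called lower in the 3 liver tables (-2.55 in B6, -1.34 in CAST and -2.12 in F1) and in no kidney table, with a tissue difference of -1.85 (SE 0.26, adjusted p = 8.7e-06). Cebpb, which encodes the related factor C/EBP-beta, was called higher in the 3 kidney tables (2.75 in B6, 2.66 in CAST and 2.67 in F1), had log2 fold changes of 0.00, 0.19 and -0.08 in liver, and had a tissue difference of -2.66 (SE 0.27, adjusted p = 5.4e-08). Acacb, an acetyl-CoA carboxylase, was called lower in the 3 liver tables and had a tissue difference of -2.42 (SE 0.32, adjusted p = 2.6e-06). These are RNA levels, and protein levels of C/EBP factors or carboxylases were not measured.

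Of 14 insulin, AKT and FOXO genes, 8 were called lower in B6 liver, 9 in CAST liver and 6 in F1 liver, and 1 higher in each, beside 6.45%, 10.4% and 4.15% of all genes called lower there. The list median was -1.12, -1.10 and -1.07 against 0.09, -0.04 and 0.21 for all genes. In kidney 1 of 13 tested in B6, 1 of 14 in CAST and 2 of 14 in F1 were lower and none higher, with list medians of -0.04, -0.03 and -0.0016 and 7.77%, 4.7% and 2.57% of all genes called lower. Pck1, the gluconeogenic enzyme PEPCK, was called lower in the 3 liver tables with a mean of -4.20 and in no kidney table, with a tissue difference of -3.61 (SE 0.47, adjusted p = 2.6e-06). Ppargc1a, a coactivator of gluconeogenic genes, was called lower in the same tables, with a liver mean of -2.99 and a tissue difference of -2.47 (SE 0.49, adjusted p = 0.00062). G6pc, the catalytic subunit of glucose-6-phosphatase, was called lower in all tables but B6 liver (-1.04, adjusted p = 0.30). Igfbp1, an insulin-repressed binding protein of insulin-like growth factors, was the gene called higher in the 3 liver tables, with a liver mean of 2.90, and was called lower in F1 kidney (-1.59, adjusted p = 0.027). Hepatocyte markers had median log2 fold changes of -1.04 in B6 liver, -0.73 in CAST liver and -1.68 in F1 liver, with 1 of 6 called lower in F1 liver and none elsewhere in liver. They summed to 20180 to 60460 CPM in liver TM samples and 46550 to 84460 in liver controls other than F1 liver control 2, which had 10730. Within each genotype the TM sums lay below the controls apart from that library. The part of these markers in the liver falls, that of Cebpa and Acacb included, was not tested.

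**Figure D4:**
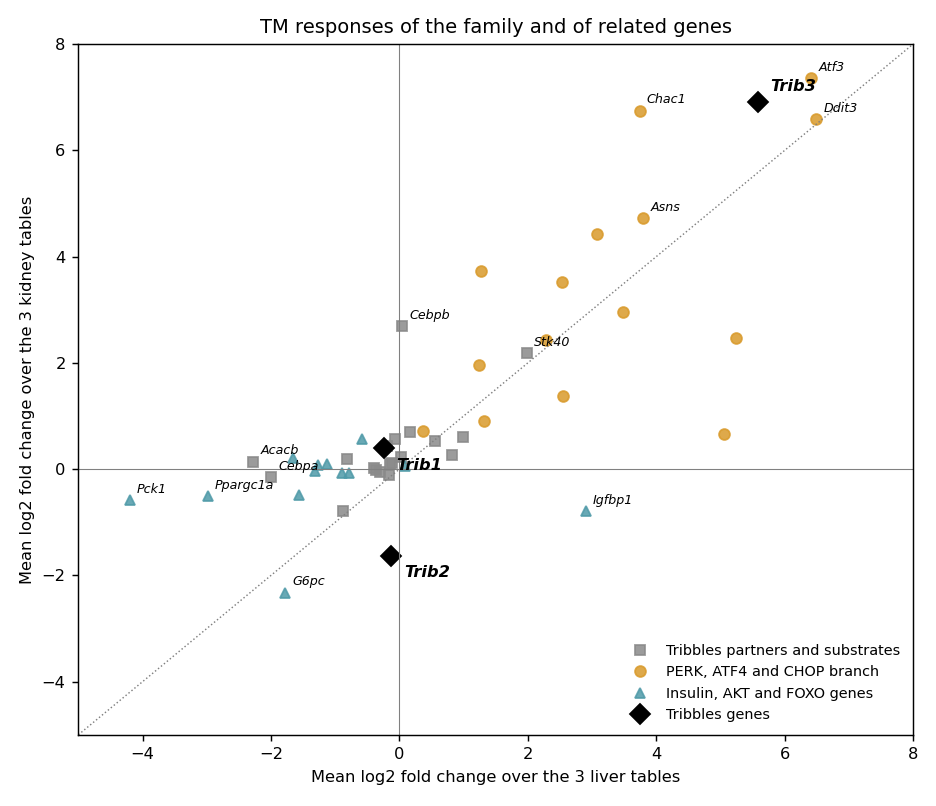
Mean log2 fold change of TM against control over the 3 liver tables (horizontal) and the 3 kidney tables (vertical) for the Tribbles genes (diamonds) and for genes of 3 lists, for those tested in all 6 tables; the dotted line marks equal values. Trib3 (5.58 in liver and 6.91 in kidney) lies beside Ddit3 and Atf3, and Trib2 (-0.13 and -1.63) lies below the genes around it.

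The genes whose pattern was most like each member were ranked by Pearson correlation over the 33 samples, with the mean of each table removed, among genes with a mean of at least 50 in every table. These values are descriptions, since samples share tables and treatment drives most of the variation. For Trib3 they were Herpud1, an ER-associated degradation gene (r = 0.98), Ddit3 (0.98) and Ppp1r15a, which encodes the phosphatase subunit GADD34 (0.98). For Trib2 they were Gatm, a creatine synthesis enzyme of the kidney tubule (0.85), Galnt11, a glycosyltransferase (0.83) and Tmem64 (0.79).

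The 3 genes nearest to Trib2 were called lower in all 3 kidney tables, as Trib2 was, and in no liver table. The correlation that picked them kept the TM effect. Their shared calls and their r over kidney samples therefore largely follow from that choice and are no further evidence. Gatm had log2 fold changes of -3.01 in B6 kidney, -1.78 in CAST kidney and -2.24 in F1 kidney. Over the kidney samples alone their r with Trib2 was 0.91 to 0.95, and over the liver samples alone 0.03 to 0.15. For Trib1 the nearest genes were C77080 (0.73), Ppp1r13b (0.71) and Lama1, a laminin chain (0.69), and none of them was called in more than 1 table.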

How the data were processed

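The deposited values are a signal in the form of gene counts that the authors scaled with DESeq2 1.28.1, in 6 tables, 1 per genotype and tissue, each on its own. Libraries were stranded and depleted of ribosomal RNA. Per the methods, B6 and CAST reads were aligned to their own strain's genome with Bowtie2 2.2.9, an aligner that does not split reads over introns, and F1 reads with STAR 2.6 to a B6 genome masked at CAST variants. For the counting step, the tool is not given in the sources used. Multiplying each library by 1 factor gave whole reads for 100% of values (within 0.01), which give CPM and depth. CPM per kilobase uses the union of GENCODE exons.

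limma 3.58.1 with a mean-variance trend was run in R 4.3.3 on log2(normalized count + 1), for genes with a mean of 5 or more, with Benjamini-Hochberg adjustment over all genes tested. Fold changes on this scale understate changes of low genes. Groups came from the sample labels. Tissue and genotype differences are interaction terms, which cancel a scale factor per table, and take liver and kidney samples as independent. The fits were tested on simulated data.

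Alternatives were pseudocounts of 0.5 and 5, a minimum mean of 20 or no minimum, scaling by TMM, centring of the median fold change on 0, limma without the trend, the count tests of edgeR 4.0.16 and DESeq2 1.42.0 on recovered reads, a replicate block, and omission of each library in turn. For TM effects and genotype differences the block joined TM and control samples of equal number. For tissue differences it joined liver and kidney samples of equal number within a genotype and treatment. That such liver and kidney samples come from the same mouse was assumed and not checked. Leaving out 5 libraries together was chosen after seeing the data. Where an arm keeps 1 sample, it is assumed to vary like the others. Replicate numbers were checked as pairs by the correlation of TM and control samples after group means were removed, which was 0.252 to 0.477 in B6 kidney and 0.252 to 0.533 in CAST kidney for equal numbers, above 0.1, and at the lowest -0.03 in F1 kidney. Liver tables had only 2 such pairs.

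The members, gene lists and motifs were chosen with earlier results of these data known. The genes named besides the family are Stk40, up to 4 genes of each list with the largest mean change over the 6 tables, and the 3 genes most like each member. Cop1, Nupr1, Psat1 and the promoters holding the motif are named outside that rule, with their values seen.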

Additional observations from a re-analysis of the deposited data

Results flagged for a closer look

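The effect of TM differed between liver and kidney by the interaction test for Trib2 in B6, with a difference of 2.16 on the log2 scale, and as a mean over genotypes, with 1.51. It differed for Trib3 in B6, by -2.03, and as a mean over genotypes, by -1.33. Neither CAST nor F1 passed the test alone for either gene. The CAST difference of Trib3 was -0.55 and turned to 0.52 without CAST liver control 2, and the mean of Trib3 over genotypes lost its call without any 1 of B6 liver TM 3, CAST liver control 2 or F1 liver TM 2. Groups of 2 or 3 samples are too small for a test of single outlying samples.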

How the results depend on the processing

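Trib3 was called higher in all 6 tables and Trib2 lower in all 3 kidney tables under every alternative run, except that Trib3 was not called without limma's trend in B6 liver (5.80) and F1 liver (4.88). That setting called 0 genes in B6 liver and 0 in F1 liver. Without the trend the calls of Trib1 in B6 kidney (0.80) and of the Trib3 tissue difference in B6 (-2.03) were also lost. The Trib2 tissue difference in F1 passed by DESeq2 (1.90). Without the 5 libraries, which leaves only TM 1 in the F1 liver TM group, it was 2.21. Of values not called, Trib2 in B6 liver turned to -0.041 with the median set to 0, -0.032 by edgeR and -0.15 without the 5 libraries, Trib2 in F1 liver to -0.032 by edgeR, and Trib1 in B6 liver to 0.38 without the 5 libraries. With the replicate number as a block, Trib2 in B6 liver was -0.18 and the Trib1 tissue difference in CAST 0.059, and the block changed no call of the 3 genes. B6 liver control 2 has no TM partner of its number and so no weight in that block, and the value without it was also -0.18. The cause of the other changes was not tested.

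With each library left out in turn, the log2 values ranged from 0.67 to 1.03 for Trib1 in B6 kidney, -0.58 to 0.18 in B6 liver, -0.74 to 0.45 in CAST liver and -0.20 to 0.21 in CAST kidney, from -0.18 to 0.18 for Trib2 in B6 liver, and for Trib3 from 4.996 to 7.14 in CAST liver and 4.35 to 5.40 in F1 liver. Tissue differences ranged from -0.68 to 0.52 (Trib1) and -1.62 to 0.52 (Trib3) in CAST, from 1.49 to 2.13 for Trib2 in F1, and as means over genotypes from -0.84 to -0.44 for Trib1 and -1.69 to -0.97 for Trib3.

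TMM scaling over all libraries moved 20 of 36 mean CPM levels by more than 1 SD, by at most 2.46-fold. The genes most like a member depended on the samples: of the 3 nearest to Trib1, 1 was among the nearest in kidney samples alone and 0 in liver samples alone, and of those nearest to Trib2 or Trib3, 0 in either. The 3 named for Trib3 still had r of 0.98 to 0.99 with it over kidney samples and 0.97 to 0.98 over liver samples. Those named for Trib2 had 0.91 to 0.95 over kidney samples and 0.03 to 0.15 over liver samples. Low reads limit Trib2 in liver and Trib3 in kidney controls.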
